A study of Mus musculus with 17 samples.

Results

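The genes described here encode glucose uptake, glycolysis, lactate handling, pyruvate entry and oxidation, glycogen turnover and the side branches of glucose metabolism. The 41 members were chosen by gene symbol as textbook enzymes and transporters of these steps, and all 41 were among the 21798 genes of the deposited table. A CPM (read count scaled to the total of the library) of at least 0.5 in at least 3 libraries was required for testing, which 16218 genes and 40 of the members passed. Aldoc, the brain-type aldolase, did not.

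RNA was sequenced in bulk from the apex of the left ventricle of male C57Bl6/J mice, taken 3 weeks after transverse aortic constriction (TAC) or a Sham operation. TAC narrows the aortic arch with a suture, so that the left ventricle works against a raised pressure. Mice were wild type and 7 to 8 weeks old at surgery, and from 1 week after it, for 2 weeks, received 6 doses by gavage of either 29P, an oral prodrug of an RGD-mimetic cyclic peptide directed at the integrin αvβ3, at 50 μg/kg, or saline vehicle (Veh). After Sham surgery there were 5 libraries from Veh and 3 from 29P mice (Sham Veh, Sham 29P), and after TAC 3 and 6 (TAC Veh, TAC 29P), named here by the S numbers of the labels. Values of single libraries are given in the order S5, S6, S13, S19 and S20 for Sham Veh, S4, S14 and S15 for Sham 29P, and S2, S12 and S16 for TAC Veh. Libraries of low depth were removed before deposit, and so was a further TAC Veh library because it clustered with the Sham libraries, a selection that bears on every comparison with TAC Veh. The apex holds all cell types of the ventricle, so that fewer cells of a type and less RNA per cell cannot be told apart.

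Glucose enters the cardiomyocyte through the insulin-regulated transporter Slc2a4 (GLUT4) and the basal transporter Slc2a1 (GLUT1), is trapped by hexokinase, and is committed to glycolysis by phosphofructokinase. The resulting pyruvate is either reduced to lactate or carried into the mitochondrion by Mpc1 and Mpc2 and oxidised by pyruvate dehydrogenase, which the Pdk kinases inhibit. Most steps have a form typical of adult muscle (Slc2a4, Hk2, Pfkm, Pgam2, Eno3, Pygm, and Ldhb in the heart) and a form of other tissues or of the fetal heart (Slc2a1, Hk1, Pfkl, Pfkp, Pgam1, Eno1, Pygb, Ldha), and the hypertrophied heart is known for a shift from fatty acid towards glucose use.

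Depth, read from the step between low values, ran from 14.1 M to 23.7 M reads, the middle library having 20.4 M. The shallowest library, S14 (Sham 29P), also had the largest share of mitochondrially encoded reads, 40.0%. The summed CPM of 5 stress genes of the overloaded heart, led by Ankrd1, was 1520 to 6960 in the Sham and 7040 to 21900 in the TAC libraries, which did not overlap. The 7 cardiomyocyte genes led by Myh6 summed to 27400 to 43100 CPM, and the skeletal muscle genes to at most 8.71. Atrial transcripts stood apart in 3 libraries, where 5 atrial genes led by Myl4 summed to 2666 CPM in S19, 2132 in S20 (both Sham Veh) and 1723 in S18 (TAC 29P), against at most 28.6 elsewhere. These 3 libraries also form 1 of 4 runs of nearby numbers into which the libraries were grouped here from the labels, so that the atrial transcripts and that run cannot be told apart.

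Enzymes of glycolysis are textbook targets of the hypoxia-inducible factors, whose core motif is ACGTG or GCGTG, and the promoters of the lactate dehydrogenase and hexokinase pairs are shown because the balance of these isoforms differed between TAC and Sham hearts. RefSeq (GRCm38.p6) promoters matched 40 of the 41 members. The 250 bases before the start farthest upstream are given 5′ to 3′, with each match to either core on either strand in capitals. The windows are chr7:46845554-46845803 (plus strand) for Ldha, chr6:142507958-142508207 (minus strand) for Ldhb, chr10:62379909-62380158 (minus strand) for Hk1 and chr6:82774455-82774704 (minus strand) for Hk2.
Ldha: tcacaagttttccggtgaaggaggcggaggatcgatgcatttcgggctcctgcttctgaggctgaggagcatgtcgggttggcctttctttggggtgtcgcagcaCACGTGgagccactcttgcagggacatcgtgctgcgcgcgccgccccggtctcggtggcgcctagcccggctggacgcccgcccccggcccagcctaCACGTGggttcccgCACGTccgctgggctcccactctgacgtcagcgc
Ldhb: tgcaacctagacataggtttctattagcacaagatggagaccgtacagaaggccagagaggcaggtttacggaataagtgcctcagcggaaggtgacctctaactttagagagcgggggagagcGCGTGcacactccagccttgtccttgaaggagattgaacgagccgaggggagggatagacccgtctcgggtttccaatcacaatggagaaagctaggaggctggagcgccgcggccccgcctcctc
Hk1: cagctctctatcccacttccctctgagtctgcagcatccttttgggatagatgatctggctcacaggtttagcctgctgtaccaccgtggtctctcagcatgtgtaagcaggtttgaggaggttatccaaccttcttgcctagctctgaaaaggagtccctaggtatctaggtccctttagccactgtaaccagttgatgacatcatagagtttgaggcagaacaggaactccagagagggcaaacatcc
Hk2: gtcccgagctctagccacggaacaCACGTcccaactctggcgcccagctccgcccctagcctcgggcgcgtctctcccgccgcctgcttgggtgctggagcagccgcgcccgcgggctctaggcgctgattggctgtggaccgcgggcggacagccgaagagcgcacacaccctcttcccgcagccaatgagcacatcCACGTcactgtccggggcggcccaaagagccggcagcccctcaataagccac
Ldha held 5 matches to ACGTG, counted on both strands, among them 2 E-boxes (CACGTG), each of which matches on both. Ldhb held 1 match to GCGTG, Hk2 held 2 to ACGTG and Hk1 held none to either core in the window shown, whereas its other promoter entry held one. Of the members with a promoter, 35 of 40 had a core in at least 1 window, against 41.5% of all 27025 genes of the promoter table. By window, 45 of the 61 member windows held a core, against 38.6% of all 32851. Neither base composition nor the number of windows per gene was matched to that of the members. These are matches of letters, and no binding was measured.

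Levels in Sham Veh hearts are given per length, as CPM per kilobase of the union of annotated exons. The highest were those of Ldhb, the heart-type lactate dehydrogenase, at 603 ± 56.6 (SD, n = 5), the muscle enolase Eno3 at 498 ± 62.7, the muscle aldolase Aldoa at 404 ± 53.9 and the muscle phosphoglycerate mutase Pgam2 at 349 ± 35.7. The adult muscle form exceeded its partner in each pair named above. On this scale Slc2a1 stood at 0.0491 ± 0.0142 of Slc2a4, Pfkl at 0.0458 ± 0.00245 and Pfkp at 0.0219 ± 0.00326 of Pfkm, and Eno1 at 0.0134 ± 0.00179 of Eno3. Hexokinase, lactate dehydrogenase and glycogen phosphorylase were less one-sided, with Hk1 at 0.321 ± 0.0399 of Hk2, Ldha at 0.163 ± 0.0143 of Ldhb and Pygb at 0.603 ± 0.0376 of Pygm. The lowest tested member was Slc16a3, the lactate exporter MCT4, at 0.270 ± 0.0890. Aldoc was listed at 0 in S5, S12 and S16 and reached at most 0.315 CPM (S18), so that its ratio to Aldoa was not tested. Near-identical copies took 72.9% of the CPM summed over gene and copies for Gapdh, 71.5% for Pgk1, 66.8% for Eno1, 24.2% for Pdhb, 21.2% for Pgam1 and under 16% for the others with a matched copy, and these values are uncertain to that extent. Ldhb-ps, a pseudogene named for Ldhb for which no such match was found, took 19.3% of its sum with Ldhb.

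**Figure D1:**
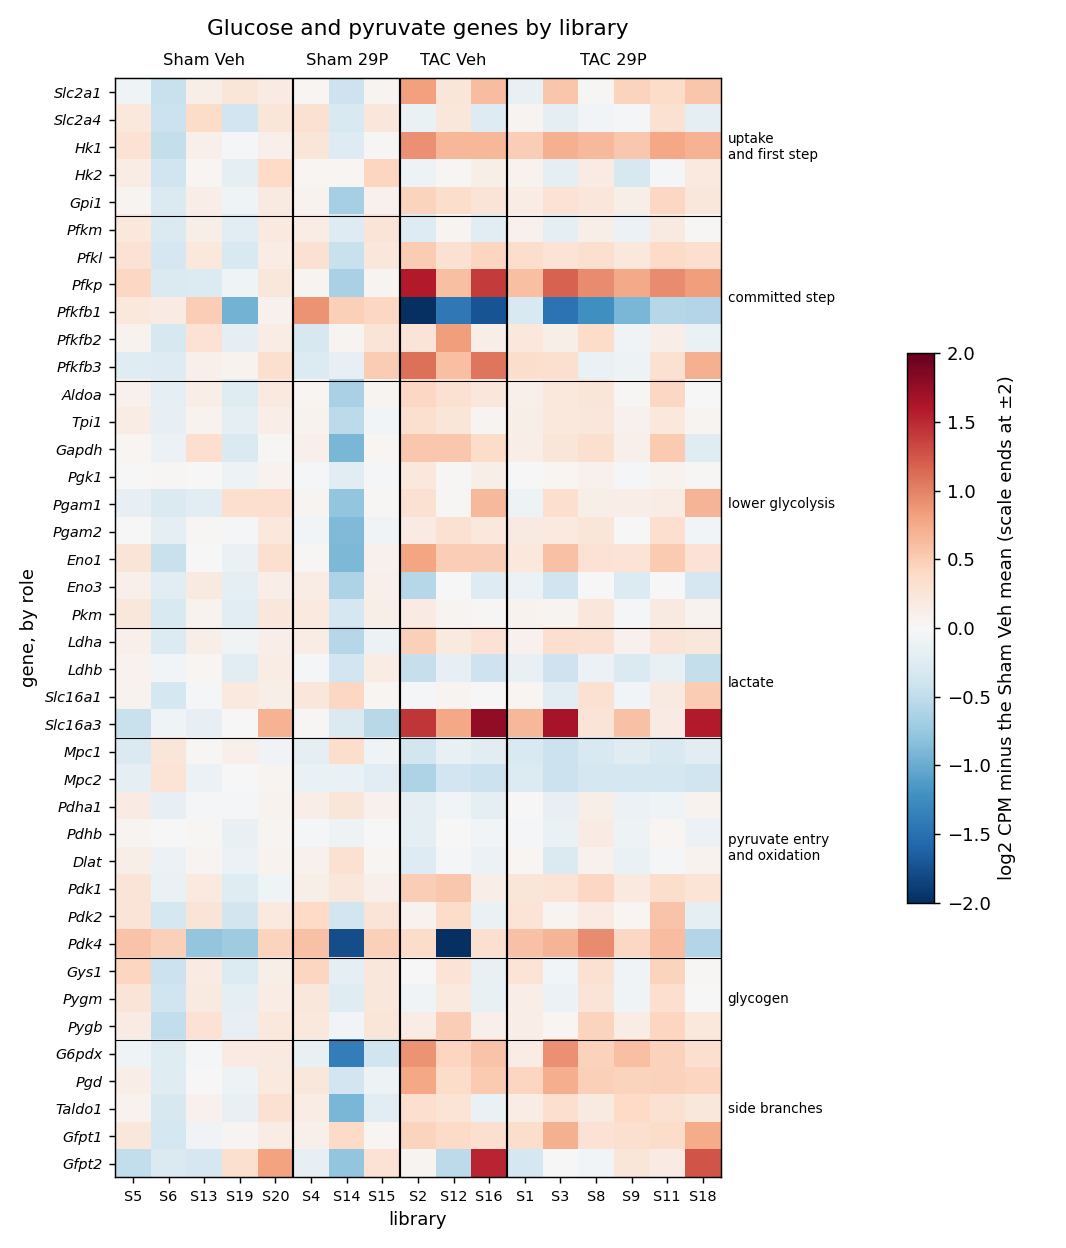
Level of the 40 tested members (rows, by role) in each of the 17 libraries (columns, by group), as log2 CPM minus the mean of the 5 Sham Veh libraries. Hk1, Pfkp and Slc16a3 are above the Sham Veh mean and Pfkfb1 below it in every TAC column on deposited CPM.

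To ask which of these genes differ under pressure overload, TAC was first compared with Sham over both treatments, as the mean of the differences within Veh and within 29P. On deposited CPM 19 of the 40 members were higher in TAC hearts, 5 were lower and 16 did not pass (limma, Benjamini-Hochberg adjusted p of 0.05 or less over all 16218 genes). By the same rule 49.4% of all genes were higher and 3.08% lower, so that the share of members called higher was near the background and is not a result about them. The median of all genes was itself 0.36 on the log2 scale, against 0.26 for the members. Mitochondrially encoded reads, which enter the total, were 23.6% to 29.4% in TAC and 29.1% to 40.0% in Sham libraries. With TMM factors, which bring the median of all genes to 0.01, 5 members were higher and 16 lower, against 13.5% of all genes in each direction, and the members' median was -0.09. Under deposited CPM, TMM, median-of-ratios factors and totals without mitochondrial genes alike, Hk1, Pfkp, Slc16a3, G6pdx and Pgd were called higher and Pfkfb1, Ldhb, Mpc1, Mpc2 and Pdha1 lower. Of these, Pdha1 was the least stable on CPM: it passed in 5 of the 17 fits that left out 1 library (S6, S8, S12, S15 or S18), at -0.14 to -0.18 over all 17, and did not pass with a constant of 1 added, with no filter, with animal-number run as a term or without the atrial libraries. Ldhb did not pass on CPM without S2 or without S15. Other calls on CPM that 1 library decided were those of Pgam1, which passed in 9 of the 17 fits (not without S2, S3, S5, S6, S13, S14, S16 or S18), Taldo1 (not without S2, S12 or S14), Tpi1 (not without S2 or S14), and Pfkl and Aldoa (not without S14). Values below are on CPM unless TMM is named.

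**Figure D2:**
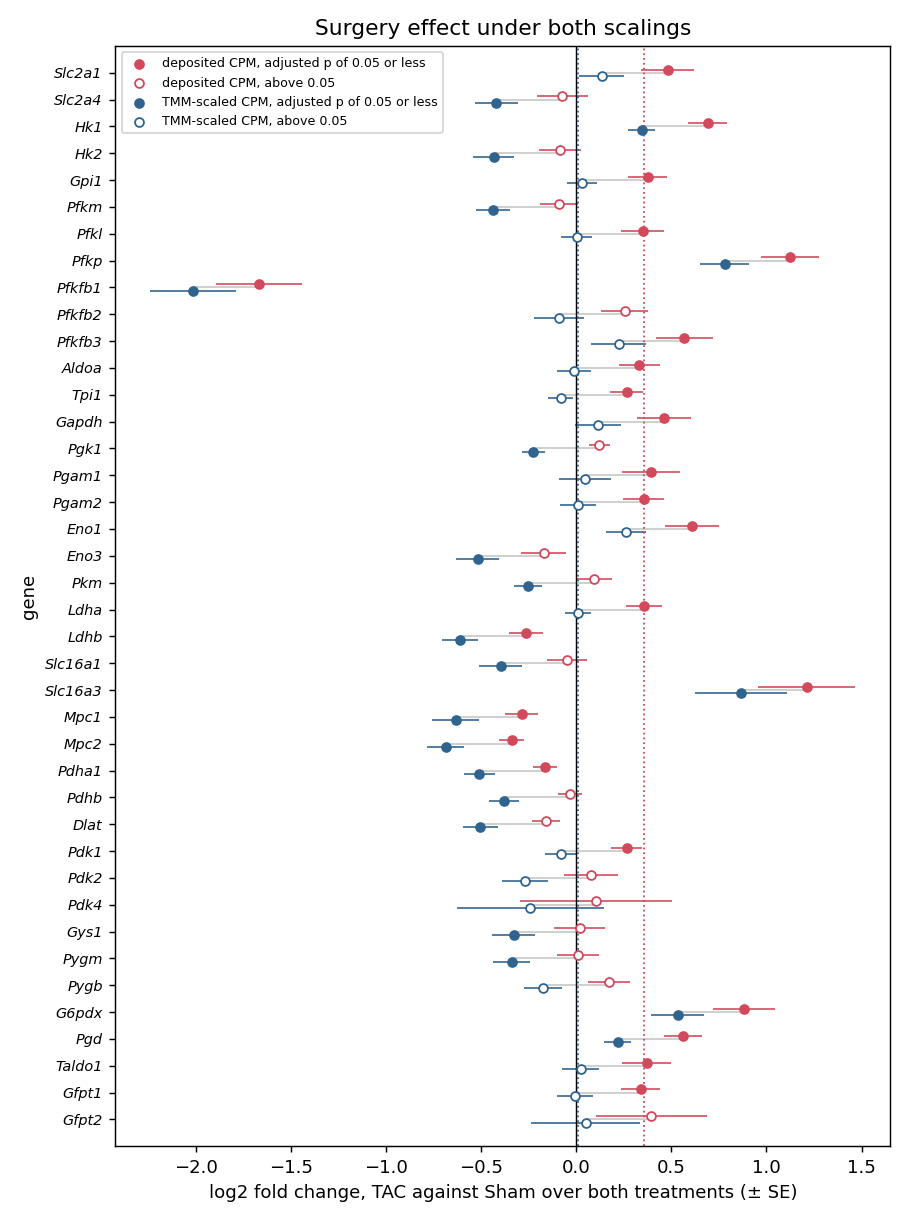
Log2 fold change with its SE, TAC against Sham over both treatments, for the 40 tested members on deposited CPM and on TMM-scaled CPM, filled where the adjusted p was 0.05 or less, with dotted lines at the median of all genes (0.36 and 0.01). Slc16a3 and Pfkp lie farthest right and Pfkfb1 farthest left on both scales, whereas 12 members change sign between them (Pfkfb2, Aldoa, Tpi1, Pgk1, Pkm, Pdk1, Pdk2, Pdk4, Gys1, Pygm, Pygb and Gfpt1).

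In vehicle-treated mice alone 7 members were higher in TAC, against 22.5% of all genes, and 2 were lower, against 1.91%. The higher ones were Hk1, Pfkp, Pfkfb3, Eno1, Slc16a3, Pdk1 and Pgd, and the lower ones Pfkfb1 and Mpc2. With TMM 2 were higher (Hk1 and Pfkp; all genes 3.85%) and 9 lower (all genes 5.78%). Of those 9, only Ldhb, Mpc2 and Pfkfb1 were still called lower with TMM without the atrial libraries. TAC Veh lay wholly above Sham Veh for 13 members and wholly below for 2, and 29.8% of all genes did not overlap. In 29P-treated mice 11 members were higher (all genes 31.4%) and 2 lower (all genes 1.12%). With TMM 2 were higher (all genes 5.73%) and 8 lower (all genes 4.96%), and on CPM, fitted with animal-number run as a term, 1 was higher and 0 lower. These counts moved with single libraries. Without the TAC Veh library S2, Hk1 and Pfkp remained higher and Pfkfb1 lower in vehicle-treated mice, and without S14, which enters that comparison through the shared spread alone, 15 were higher and 3 lower. In vehicle-treated mice Eno1 passed in 7 of the 17 fits that left out 1 library (not without S1, S2, S6, S8, S9, S11, S12, S13, S16 or S19), Pdk1 in 13 (not without S2, S6, S12 or S19) and Slc16a3 in 15 (not without S2 or S16), and neither Eno1 nor Pdk1 passed without the atrial libraries. In 29P-treated mice 2 higher and 1 lower were left without S14, and 6 higher and 1 lower without S3 (TAC 29P). Mpc1 was not called lower there without S1, S3, S8, S9, S11, S12, S13, S14, S15, S16 or S20. Among the same fits Tpi1 was called higher only in those without S4, S6 or S19.

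Among the genes of uptake and the first step, Hk1, the hexokinase of most tissues, rose in TAC hearts. Hk1 (ENSMUSG00000037012, chr10:62268855-62379908, minus strand) stood at 109, 63.9, 96.1, 88.0 and 96.0 CPM in Sham Veh, 106, 74.9 and 91.0 in Sham 29P, 167, 141 and 141 in TAC Veh, and 126 to 152 with a median of 142 in TAC 29P. Every TAC library was above every Sham library. The log2 fold change was 0.69 ± 0.10 (SE, limma adjusted p = 0.000119), and 0.34 ± 0.07 with TMM (adjusted p = 0.00187). Its muscle partner Hk2 ranged from 148 to 257 CPM in Sham Veh and 183 to 212 in TAC Veh, at -0.09 ± 0.11 on CPM, which did not pass, and at -0.43 ± 0.11 with TMM (limma adjusted p = 0.00674). Slc2a1 stood at 7.45, 5.77, 8.51, 9.29 and 8.84 CPM in Sham Veh, 8.12, 5.92 and 8.15 in Sham 29P, 13.8, 9.29 and 12.1 in TAC Veh, and 7.11 to 11.6 with a median of 10.4 in TAC 29P. TAC and Sham libraries overlapped. It was higher in TAC by 0.48 ± 0.14 on CPM (limma adjusted p = 0.00977) and stood at 0.13 ± 0.12 with TMM, which did not pass. Slc2a4 ranged from 122 to 210.2 CPM in Sham Veh and 136 to 192 in TAC Veh, at -0.07 ± 0.13 on CPM, which did not pass, and at -0.42 ± 0.11 with TMM (limma adjusted p = 0.0113). Gpi1, the isomerase that makes fructose 6-phosphate, was higher by 0.38 ± 0.10 on CPM and stood at 0.03 ± 0.08 with TMM.

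At the committed step Pfkp, the platelet-type phosphofructokinase, rose and Pfkfb1 fell. Pfkp (ENSMUSG00000021196, chr13:6579768-6648777, minus strand) stood at 64.4, 39.9, 40.2, 45.9 and 56.8 CPM in Sham Veh, 50.3, 31.1 and 50.4 in Sham 29P, 145, 73.7 and 128 in TAC Veh, and 73.9 to 109.5 with a median of 90.2 in TAC 29P. The lowest TAC library was above the highest Sham library. On the log2 scale the difference was 1.13 ± 0.15 (limma adjusted p = 6.83e-05), a fold of 2.18, and 0.78 ± 0.13 with TMM. Pfkfb1 (ENSMUSG00000025271, chrX:150588229-150643878, plus strand), the liver- and muscle-type enzyme that makes and breaks the phosphofructokinase activator fructose 2,6-bisphosphate, stood at 6.52, 6.35, 7.94, 2.95 and 5.99 CPM in Sham Veh, 10.6, 7.89 and 7.57 in Sham 29P, 0.998, 2.10 and 1.71 in TAC Veh, and 2.04 to 4.56 with a median of 3.39 in TAC 29P. TAC Veh lay below both Sham groups, and TAC 29P lay below Sham 29P but overlapped the Sham Veh library S19. The log2 fold change was -1.67 ± 0.23 (limma adjusted p = 6.45e-05), and -2.01 ± 0.22 with TMM. Exons of Pfkp overlap Pitrm1 on the other strand by 748 bases and those of Pfkfb1 overlap Apex2 by 123, and whether counting used strand is not given in the sources used here.

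Pfkfb3, the inducible form of the same bifunctional enzyme, stood at 9.09, 8.99, 11.6, 11.3 and 13.4 CPM in Sham Veh, 8.95, 9.59 and 15.4 in Sham 29P, 23.2, 16.3 and 22.5 in TAC Veh, and 9.79 to 17.6 with a median of 13.4 in TAC 29P. TAC Veh lay above Sham Veh, whereas TAC 29P lay within the range of Sham 29P except for S18. In TAC Veh it rose by 0.92 ± 0.22 on CPM (limma adjusted p = 0.0089) and stood at 0.59 ± 0.21 with TMM (adjusted p = 0.0863), and in 29P-treated mice TAC against Sham was 0.21 ± 0.21 on CPM and, with the sign turned, -0.14 ± 0.20 with TMM. Pfkfb2, the heart form, did not pass, at 0.26 ± 0.12 over both treatments and -0.09 ± 0.13 with TMM. Pfkl, the liver-type subunit, ranged from 40.4 to 62.4 CPM in Sham Veh and 63.1 to 72.1 in TAC Veh, was higher by 0.35 ± 0.11 on CPM (limma adjusted p = 0.0175) and stood at 0.00 ± 0.08 with TMM. Pfkm, the muscle subunit, ranged from 454 to 646 CPM in Sham Veh and 465.5 to 576 in TAC Veh, at -0.09 ± 0.10 on CPM, which did not pass, and -0.44 ± 0.09 with TMM (limma adjusted p = 0.0022).

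In lower glycolysis 6 of the 9 tested genes were higher in TAC on CPM (Aldoa, Tpi1, Gapdh, Pgam1, Pgam2 and Eno1) and none was lower, with a median of 0.33 against 0.36 for all genes. With TMM none was higher and 3 were lower (Pgk1, Eno3 and Pkm). Of all genes 49.4% were higher and 3.08% lower on CPM, and 13.5% went each way with TMM. Eno1, the enolase of most tissues, stood at 42.3, 25.9, 35.7, 32.1 and 44.2 CPM in Sham Veh, 36.1, 18.9 and 37.4 in Sham 29P, 60.9, 49.8 and 49.8 in TAC Veh, and 41.1 to 52.8 with a median of 43.2 in TAC 29P. Within each treatment the TAC libraries lay above the Sham libraries. Eno1 was higher by 0.61 ± 0.14 on CPM (limma adjusted p = 0.00237) and stood at 0.26 ± 0.11 with TMM (adjusted p = 0.0749). Aldoa stood at 1235, 1030, 1284, 990.2 and 1342 CPM in Sham Veh, 1202, 744 and 1212 in Sham 29P, 1562, 1450 and 1366 in TAC Veh, and 1160 to 1559 with a median of 1298 in TAC 29P. TAC Veh lay just above Sham Veh, and TAC 29P overlapped Sham 29P. Aldoa was higher by 0.33 ± 0.11 on CPM (limma adjusted p = 0.0158), and the sign turned with TMM (-0.01 ± 0.09), as it did for Tpi1, triose phosphate isomerase (0.27 ± 0.09 and -0.08 ± 0.07). Gapdh and Pgam2 were higher by 0.46 ± 0.14 and 0.36 ± 0.11 on CPM and stood at 0.12 ± 0.12 and 0.01 ± 0.10 with TMM. Eno3 was at -0.17 ± 0.12 on CPM, which did not pass, and lower with TMM, at -0.52 ± 0.11 (limma adjusted p = 0.00311).

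The lactate genes parted. Ldha, the form that favours the making of lactate, stood at 345, 268, 348, 307 and 354 CPM in Sham Veh, 358, 217 and 297 in Sham 29P, 447, 369 and 395 in TAC Veh, and 341 to 407 with a median of 381 in TAC 29P. TAC Veh lay above all Sham libraries. The log2 fold change over both treatments was 0.36 ± 0.10 on CPM (limma adjusted p = 0.0057), which is close to the median of all genes, and 0.01 ± 0.07 with TMM. Ldhb, which favours the use of lactate, stood at 995.1, 907, 971, 816 and 1046 CPM in Sham Veh, 932, 725 and 1049 in Sham 29P, 689, 846 and 709.5 in TAC Veh, and 677 to 871 with a median of 809.9 in TAC 29P. The Sham libraries S19 and S14 lay within the TAC range. Ldhb was lower by a log2 of -0.26 ± 0.09 (limma adjusted p = 0.0211), and of -0.61 ± 0.09 with TMM. Slc16a3 (ENSMUSG00000025161, chr11:120948480-120960868, plus strand) had the largest rise of all members. It stood at 1.01, 1.30, 1.24, 1.39 and 2.25 CPM in Sham Veh, 1.40, 1.13 and 0.939 in Sham 29P, 3.72, 2.37 and 4.75 in TAC Veh, and 1.54 to 4.33 with a median of 2.14 in TAC 29P. TAC Veh lay above both Sham groups and TAC 29P above Sham 29P. The difference between TAC and Sham was, on the log2 scale, 1.21 ± 0.26 (limma adjusted p = 0.00125), a fold of 2.32, and 0.87 ± 0.24 with TMM. Slc16a1, the broadly expressed lactate transporter MCT1, was at -0.05 ± 0.10, which did not pass, and at -0.40 ± 0.11 with TMM (limma adjusted p = 0.0157).

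Genes that bring pyruvate into the mitochondrion and oxidise it held the most lower members. Of these 8 genes 3 were lower on CPM (Mpc1, Mpc2 and Pdha1) and 1 was higher (Pdk1), against 3.08% and 49.4% of all genes, with a median of -0.09 against 0.36 for all genes. With TMM 5 were lower, Pdhb and Dlat being added, and none was higher (all genes 13.5% each way). Mpc2 (ENSMUSG00000026568, chr1:165460637-165481214, plus strand), a subunit of the mitochondrial pyruvate carrier, stood at 189.7, 258, 198, 212 and 222 CPM in Sham Veh, 197, 196 and 186 in Sham 29P, 140.1, 164 and 160.2 in TAC Veh, and 159 to 178 with a median of 168 in TAC 29P. Every TAC library was below every Sham library. The log2 fold change was -0.34 ± 0.07 (limma adjusted p = 0.000861), and -0.69 ± 0.10 with TMM. Its partner Mpc1 was lower by a log2 of -0.29 ± 0.09 on CPM and -0.63 ± 0.12 with TMM. Pdha1, a catalytic subunit of pyruvate dehydrogenase, was at -0.16 ± 0.07 on CPM (limma adjusted p = 0.0452), a call lost in most fits without 1 library, and at -0.51 ± 0.08 with TMM (adjusted p = 0.000322). Pdk1, an inhibitory kinase, was higher by 0.27 ± 0.08 on CPM, with the sign turned under TMM (-0.08 ± 0.08), and without the atrial libraries it stood at 0.21 on CPM and did not pass (limma adjusted p = 0.0542). Pdk2, another of the kinases, did not pass on either scale, nor did Pdhb and Dlat, further subunits of the complex, on CPM (-0.03 ± 0.06 and -0.16 ± 0.07, against -0.38 ± 0.08 and -0.50 ± 0.09 with TMM).

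Pdk4, the kinase induced by fasting, varied widely within each group. It stood at 722, 676, 279.8, 298 and 661 CPM in Sham Veh, 726, 142 and 674 in Sham 29P, 624, 113 and 604 in TAC Veh, and 324 to 935 with a median of 737 in TAC 29P. The 3 libraries of 1 run of animal numbers, S12 (TAC Veh), S13 (Sham Veh) and S14 (Sham 29P), lay at 113 to 280 CPM, and S18 and S19 of the run with atrial transcripts were also low. The 9 libraries of the longest run lay at 624 to 935 CPM. Pdk4 passed in no comparison. The labels do not say what a run stands for, and its part in these values was not tested.

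**Figure D3:**
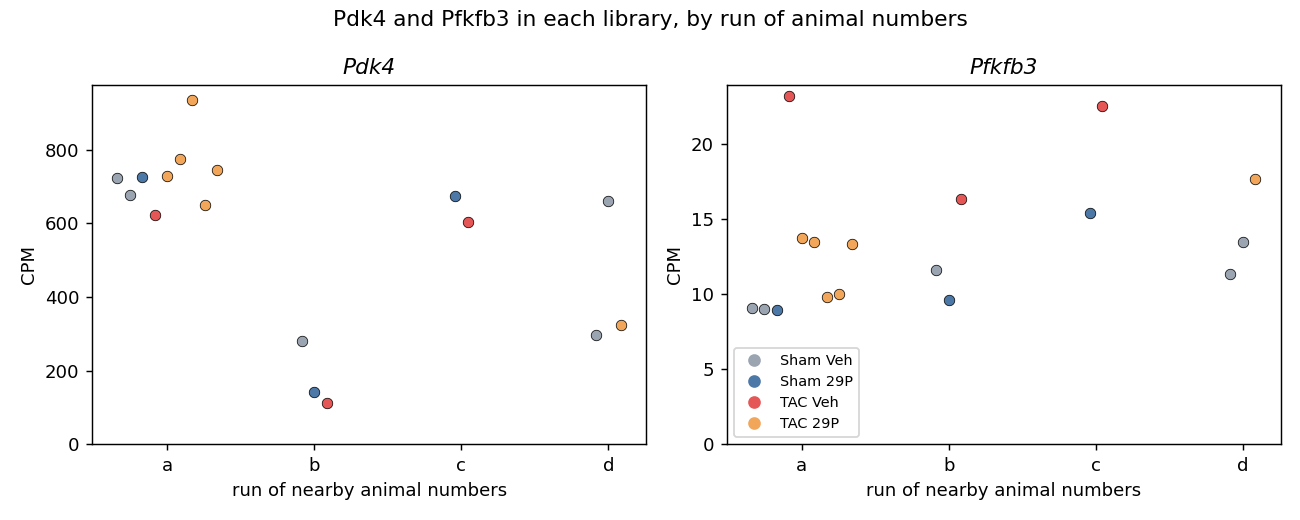
CPM of Pdk4 and Pfkfb3 in each of the 17 libraries, placed by run of nearby animal numbers (a to d) and coloured by group. Pdk4 is low in all 3 libraries of run b (113 to 280), whichever their group, and the TAC Veh library is the highest for Pfkfb3 in runs a, b and c.

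None of the 3 glycogen genes passed on CPM. Pygb, the brain-type glycogen phosphorylase, ranged from 325 to 558 CPM in Sham Veh and 492 to 647 in TAC Veh and stood at 0.17 ± 0.11 on the log2 scale (-0.17 ± 0.10 with TMM, neither past the threshold). Pygm, the muscle form, and Gys1, glycogen synthase, stood at 0.01 ± 0.11 and 0.02 ± 0.13 on CPM, and were lower with TMM, at -0.34 ± 0.10 and -0.33 ± 0.11. In the side branches 4 of 5 genes were higher on CPM, and 2 of them, G6pdx and Pgd, also with TMM (all genes 49.4% and 13.5%), with a median of 0.40 on CPM against 0.36 for all genes. G6pdx, the entry enzyme of the pentose phosphate pathway, stood at 5.72, 5.15, 5.99, 6.84 and 6.89 CPM in Sham Veh, 5.49, 2.33 and 4.63 in Sham 29P, 11.3, 8.17 and 9.06 in TAC Veh, and 6.71 to 11.5 with a median of 8.37 in TAC 29P. TAC Veh lay above all Sham libraries and TAC 29P above Sham 29P, where S14 was lowest. The log2 fold change was 0.88 ± 0.16 (limma adjusted p = 0.000565), and 0.53 ± 0.14 with TMM, and exons of G6pdx overlap the more abundant Ikbkg on the other strand by 418 bases. Pgd, the third enzyme of that pathway, was higher by 0.56 ± 0.10 (limma adjusted p = 0.000397) and by 0.22 ± 0.07 with TMM. Taldo1, transaldolase, was higher by 0.37 ± 0.13 and Gfpt1, the entry enzyme of the hexosamine pathway, by 0.34 ± 0.10 on CPM, and with TMM they stood at 0.02 ± 0.10 and, with the sign turned, at -0.01 ± 0.10. Gfpt2 stood at 0.40 ± 0.29 and did not pass.

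The balance between isoforms was compared as the log2 ratio of CPM within a library, which no scaling of the library can move. Of 12 pairs listed 11 were tested, and in 8 the first-named form gained on its partner in TAC hearts over both treatments. The test was an exact two-sided permutation of libraries within each treatment, adjusted over the 11 pairs, and 0.000213 is the smallest unadjusted p it can give. Slc16a3/Slc16a1 rose by 1.26, a fold of 2.40 (adjusted p = 0.00117, exact permutation test), and Pfkp/Pfkm by 1.22, a fold of 2.32 (adjusted p = 0.000468, exact permutation test). Eno1/Eno3 rose by 0.78, Hk1/Hk2 by 0.78, Ldha/Ldhb by 0.62 and Pfkl/Pfkm by 0.44, each at an adjusted p of 0.000468 in the exact permutation test. Slc2a1/Slc2a4 rose by 0.55 (adjusted p = 0.0164, exact permutation test) and Pygb/Pygm by 0.17 (adjusted p = 0.0107, exact permutation test). Pgam1/Pgam2 at 0.04, Pdk4/Pdk2 at 0.03 and Gfpt2/Gfpt1 at 0.06 did not pass.

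Hk1/Hk2 was -1.14 ± 0.19 (log2 ratio, SD, n = 5) in Sham Veh, -1.30 ± 0.32 (n = 3) in Sham 29P, -0.40 ± 0.24 (n = 3) in TAC Veh and -0.47 ± 0.21 (n = 6) in TAC 29P. Ldha/Ldhb was -1.55 ± 0.13, -1.65 ± 0.23, -0.89 ± 0.29 and -1.07 ± 0.21 in the same order. For these pairs, and for Pfkl/Pfkm, Pfkp/Pfkm and Eno1/Eno3, every TAC library lay above every Sham library. Set per length, Hk1 went from 0.321 ± 0.0399 of Hk2 in Sham Veh to 0.534 ± 0.0938 in TAC Veh, and Ldha from 0.163 ± 0.0143 to 0.260 ± 0.0505 of Ldhb, so that the adult form was still the more abundant. For Slc2a1/Slc2a4 the groups overlapped, the TAC Veh library S12 (-4.37) and the TAC 29P libraries S1 (-4.58), S8 (-4.29), S9 (-3.90) and S11 (-4.32) lying among the Sham values. In vehicle-treated mice 7 of the 11 pairs passed (smallest adjusted p = 0.0281, exact permutation test) and in 29P-treated mice 5 did (smallest adjusted p = 0.0262, exact permutation test). The 5 were Hk1/Hk2, Pfkl/Pfkm, Pfkp/Pfkm, Eno1/Eno3 and Ldha/Ldhb, which also passed in vehicle-treated mice, where Slc16a3/Slc16a1 and Pygb/Pygm were added. In 29P-treated mice Slc16a3/Slc16a1 stood at 1.198 (adjusted p = 0.0655, exact permutation test) and Pygb/Pygm at 0.08 (adjusted p = 0.335, exact permutation test). Slc2a1/Slc2a4 passed in neither treatment alone (adjusted p = 0.123 and 0.112, exact permutation test). Within the longest run of animal numbers, with 6 TAC and 3 Sham libraries, the differences were 0.66 for Hk1/Hk2, 0.998 for Pfkp/Pfkm, 0.74 for Eno1/Eno3, 0.53 for Ldha/Ldhb and 0.31 for Pfkl/Pfkm, without overlap, and 0.54 for Slc2a1/Slc2a4 and 0.92 for Slc16a3/Slc16a1, with overlap.

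**Figure D4:**
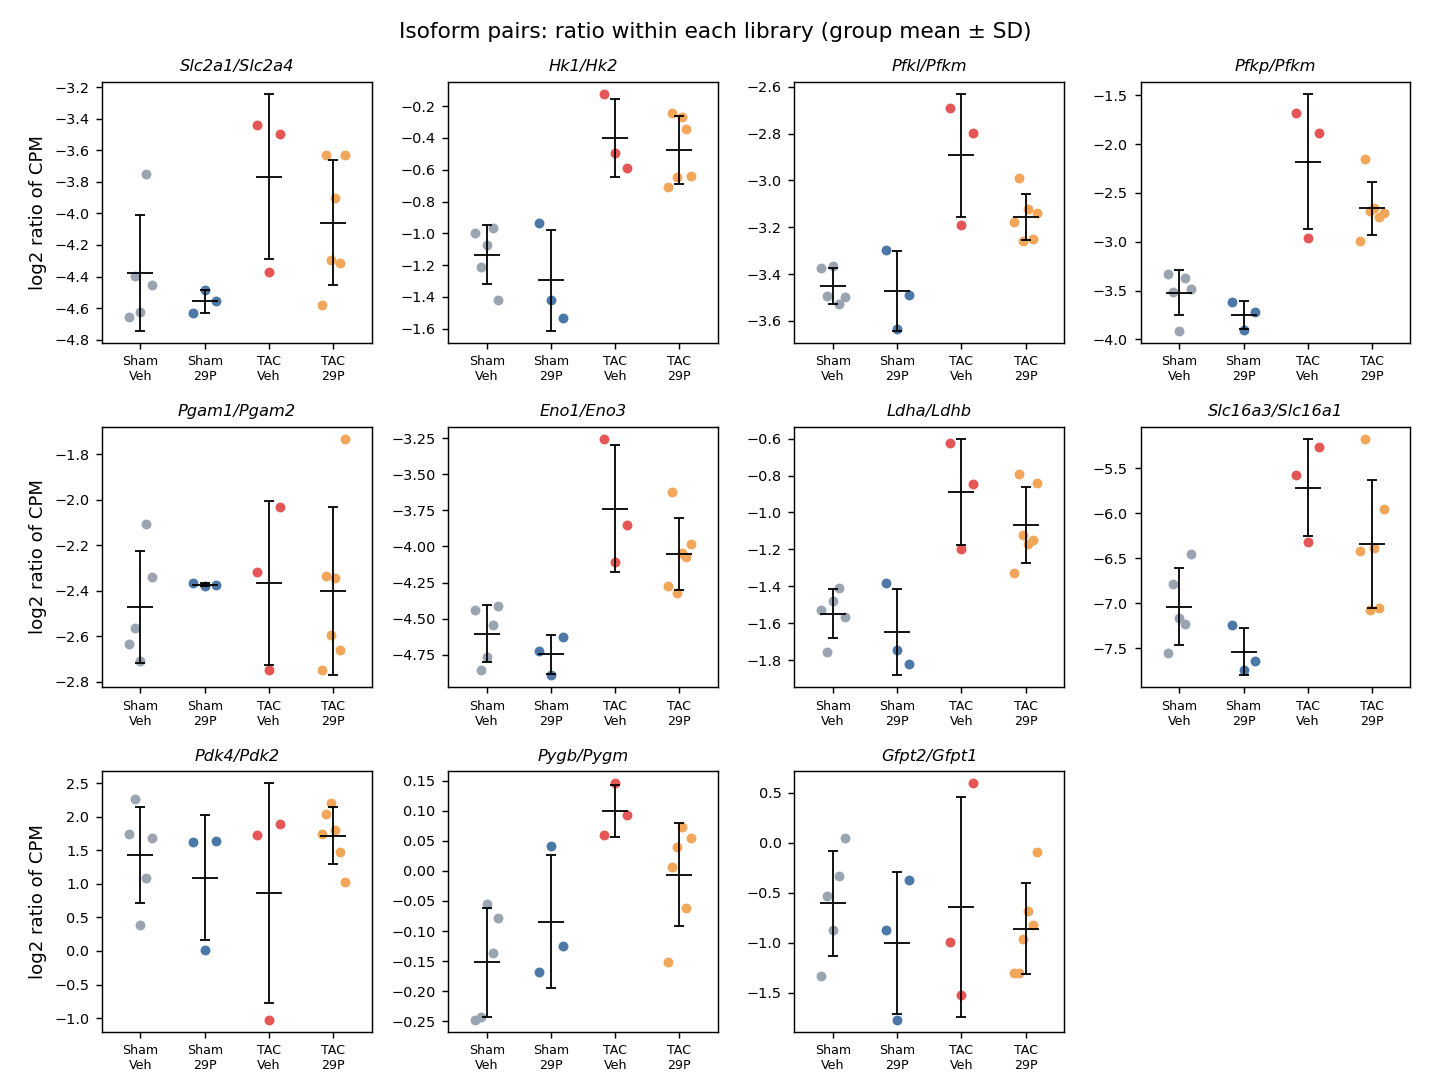
Log2 ratio of CPM of 11 isoform pairs in each library (points) by group, with the group mean and SD. All TAC points lie above all Sham points for Hk1/Hk2, Pfkl/Pfkm, Pfkp/Pfkm, Eno1/Eno3 and Ldha/Ldhb, and TAC and Sham points overlap for the other pairs.

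Markers of other cells were read against the 49.4% of all genes that were higher on CPM and the 13.5% that were with TMM. The 8 fibroblast genes led by Dcn summed to 812 to 1480 CPM in Sham and 1500 to 4110 in TAC libraries, and 8 were higher over both treatments (5 with TMM). The 7 macrophage genes led by C1qb summed to 101 to 204 and 228 to 375 CPM, with 7 higher (6 with TMM). The 6 endothelial genes led by Cdh5 summed to 478 to 982 and 835 to 1260 CPM, with 6 higher (2 with TMM). Of 5 mural genes led by Rgs5, at 858 to 1220 and 1130 to 1580 CPM, 3 were higher (1 with TMM), and of 5 red cell genes led by Hbb-bs, at 562 to 2460 and 1040 to 4990 CPM, 5 were (1 with TMM). Of the 7 cardiomyocyte genes 1 was higher and 1 lower on CPM, and 5 were lower with TMM. No adipocyte, skeletal muscle or atrial gene passed. The part of these cells in the isoform balance was not tested.

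To ask whether 29P moved these genes in the overloaded heart, TAC 29P was compared with TAC Veh. Of the 6 TAC 29P libraries 5 were of run a of the animal numbers and 1 of run d. TAC Veh had 1 library in each of runs a, b and c, so that 29P and run can be told apart only in part. No member passed the adjusted threshold, and 0.0% of all genes did (limma). At an unadjusted p of 0.05, 1 member was higher and 1 lower, against 1.98% of all genes. Both are isoforms of the enzyme that sets fructose 2,6-bisphosphate. Pfkfb1 stood at 1.04 ± 0.31 (95% interval 0.38 to 1.70, unadjusted p = 0.0038, limma adjusted p = 1), and 1.07 ± 0.31 with TMM, with 5 of the 6 TAC 29P libraries above the highest TAC Veh library and S3 within the TAC Veh range. Pfkfb3 stood at -0.68 ± 0.21 (95% interval -1.12 to -0.24, unadjusted p = 0.00447, limma adjusted p = 1), and -0.66 ± 0.20 with TMM, with 5 of the 6 TAC 29P libraries below the lowest TAC Veh library and S18 within the TAC Veh range. For Pfkfb3 those 5 were all of run a, whose TAC Veh library S2 stood at 23.2 CPM. No member's groups were without overlap, against 1.83% of all genes. This comparison shares its TAC Veh libraries with TAC Veh against Sham Veh.

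For 36 of the 40 members the 95% interval of the 29P difference lay within a 2-fold change either way, and its median half-width was 0.33 on the log2 scale. Hk1 stood at -0.10 (-0.40 to 0.20), Ldha at -0.10 (-0.38 to 0.17) and Mpc2 at 0.11 (-0.08 to 0.31). The intervals were wider for Slc2a1 at -0.26 (-0.67 to 0.15), Gapdh at -0.30 (-0.72 to 0.11) and Slc16a3 at -0.51 (-1.25 to 0.24). Gys1 stood at 0.12 (-0.27 to 0.50), G6pdx at -0.15 (-0.63 to 0.33) and Pdk4 at 0.92 (-0.26 to 2.09). For Pdk4 the TAC Veh group includes S12 of run b, at 113 CPM. None of the 11 isoform ratios passed (smallest adjusted p = 0.458, exact permutation test), Hk1/Hk2 differing by -0.07, Ldha/Ldhb by -0.18 and Pfkp/Pfkm by -0.48. The smallest unadjusted p that the exact permutation test can give here is 0.0119. A single pair at that limit could not pass after adjustment over the 11 pairs.

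**Figure D5:**
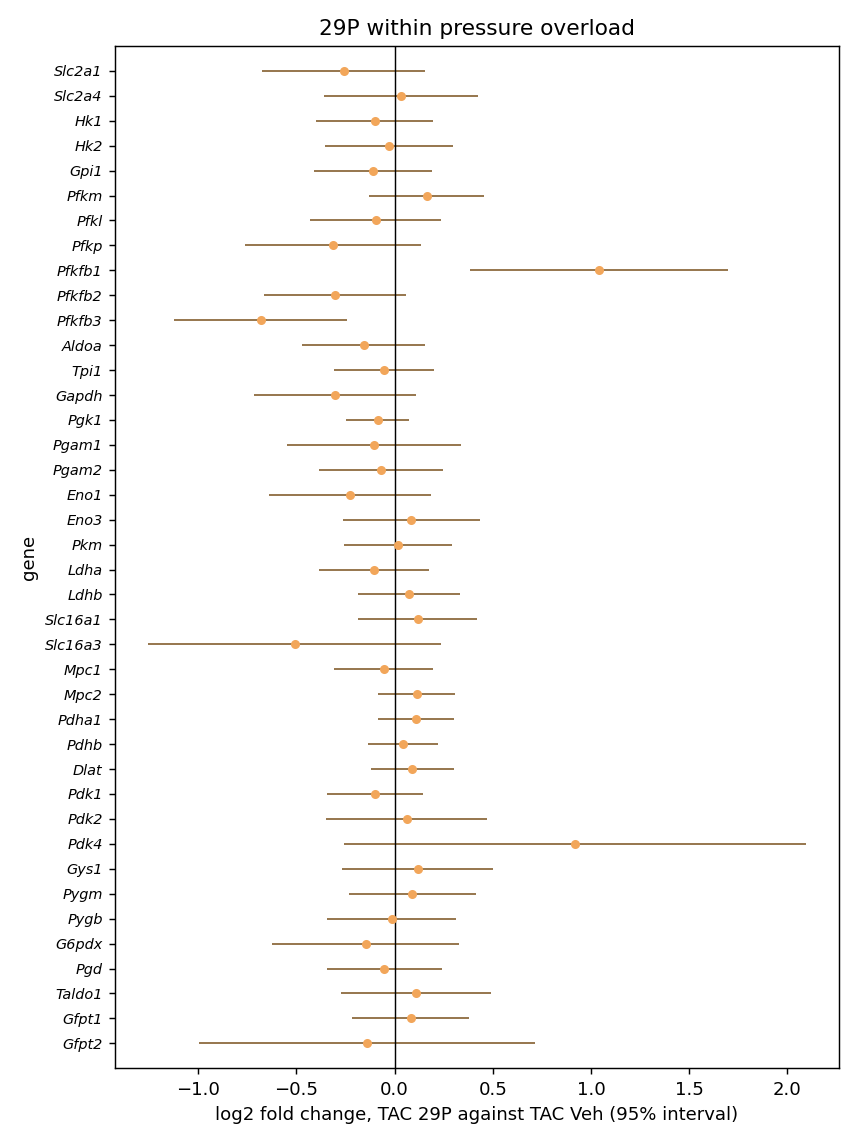
Log2 fold change of TAC 29P against TAC Veh with its 95% interval for the 40 tested members, by role. The intervals of Pfkfb1 (1.04) and Pfkfb3 (-0.68) do not reach 0, and that of Pdk4 is the widest.

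In Sham hearts no member passed the adjusted threshold for 29P against vehicle, as 0.00617% of all genes did (limma), and no isoform ratio did (smallest adjusted p = 0.629, exact permutation test). For the ratios, the smallest unadjusted p that the exact permutation test can give here is 0.0179, at which a single pair could not pass after adjustment. At an unadjusted p of 0.05, 2 members were lower, against 7.49% of all genes, G6pdx at -0.64 ± 0.23 (unadjusted p = 0.0138, limma) and Pgam2 at -0.34 ± 0.16 (unadjusted p = 0.0454, limma), and both had their lowest value in S14. The difference of the 29P effect between TAC and Sham hearts passed for no member, and for 0.00617% of all genes. At an unadjusted p of 0.05 it passed for Pfkfb3, at -0.71 ± 0.30 on the log2 scale (unadjusted p = 0.0301, limma adjusted p = 0.998), against 2.84% of all genes.

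Of 65 further genes of these pathways 62 were tested, and in TAC Veh against Sham Veh 7 were higher (all genes 22.5%) and 7 lower (1.91%) on CPM, with a median of 0.16 against 0.35 for all genes. With TMM none was higher (all genes 3.85%) and 12 were lower (5.78%), among them all 7 that were lower on CPM. Phkg1, the muscle catalytic subunit of phosphorylase kinase, stood at -1.67 ± 0.35 (-2.003 ± 0.35 with TMM), Pdp2, a phosphatase that activates pyruvate dehydrogenase, at -0.87 ± 0.27 (-1.21 ± 0.27) and Sord, sorbitol dehydrogenase, at -0.52 ± 0.14 (-0.86 ± 0.15), all lower on both scales. Ppp1r3c, a glycogen-targeting phosphatase subunit, was higher by 0.82 ± 0.20, Bpgm, bisphosphoglycerate mutase, by 0.72 ± 0.19 and Ugp2, which makes UDP-glucose, by 0.61 ± 0.13 on CPM, and with TMM these 3 did not pass.

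Of 36 regulators of glucose metabolism 7 were higher and 1 lower in TAC Veh on CPM (all genes 22.5% and 1.91%), with a median of 0.29 against 0.35. With TMM 1 was higher and 1 lower (all genes 3.85% and 5.78%). Hif1a, the oxygen-regulated subunit of the factor whose motif is marked above, was higher in TAC Veh by 0.80 ± 0.12 (limma adjusted p = 0.00123) and by 0.46 ± 0.14 with TMM (adjusted p = 0.0422). In 29P-treated mice Hif1a was higher in TAC by 0.39 ± 0.12 on CPM and stood at 0.04 ± 0.13 with TMM (limma adjusted p = 0.877). Over both treatments it was higher by 0.60 ± 0.09 on CPM and did not pass with TMM, at 0.25 ± 0.10 (limma adjusted p = 0.0612). In TAC Veh, Myc stood at 1.33 ± 0.45 (0.99 ± 0.44 with TMM), Ppard at 0.78 ± 0.28 (0.44 ± 0.23) and Trp53 at 0.62 ± 0.19 (0.28 ± 0.15), all higher on CPM and not past the threshold with TMM. Over both treatments Myc (0.95 ± 0.31) and Trp53 (0.40 ± 0.10) passed with TMM and Ppard (0.37 ± 0.16) did not. In 29P-treated mice Trp53 passed with TMM (0.51 ± 0.14), and Myc and Ppard did not. Tbc1d4 (AS160) holds GLUT4 vesicles inside the cell until insulin signals. In vehicle-treated mice it was lower in TAC on both scales, at -0.54 ± 0.12 and -0.88 ± 0.13 with TMM. In 29P-treated mice Tbc1d4 did not pass on CPM, at -0.30 ± 0.12 (limma adjusted p = 0.0542), and was lower with TMM, at -0.66 ± 0.12. For TAC 29P against TAC Veh none of the 62 genes or 36 regulators passed the adjusted threshold (limma). Without adjustment, at 0.05, 1 of the 62 was higher (Ppp1r3d, 0.55) and 3 were lower, among them Bpgm (-0.50) and Ppp1r3c (-0.44). Of the 36 regulators, 1 was higher (Tbc1d4, 0.27) and 1 lower (Hif1a, -0.28). The share of all genes at that threshold was 1.98%. With TMM, Hif1a no longer passed it (-0.255, unadjusted p = 0.0712, limma), whereas Tbc1d4 did (0.295, unadjusted p = 0.0263, limma).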

How the data were processed

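RNA of the left ventricular apex was sequenced from polyadenylated libraries (NEBNext Ultra II). Reads were aligned by the authors to mm10 with STAR 2.3.7 in Partek, per the labels and the study's methods, and deposited as CPM with 0.0001 added, 1 table for the 17 libraries. Whole reads could not be recovered, as 82.1% to 84.9% of low values were whole within 0.02 read, so no count model was used. Here log2 of the deposited CPM was fitted with limma 3.58.1 (R 4.3.3), 1 mean per group over all 17 libraries with 13 residual degrees of freedom, and called at a Benjamini-Hochberg adjusted p of 0.05 over all genes tested, with the study's unadjusted 0.05 beside it. Each library's label carries its own number, read here as an animal number; nothing else in the labels states that libraries are separate animals, and p-values measure the spread between libraries. The fit was tested on simulated data.

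TMM factors were computed with unweighted trimming (30% of log ratios, 5% of levels). Gene positions and exon lengths are from GENCODE vM21 (mm10). Copies are transcripts matched by blastn 2.17.0 at 90% identity over 50% of the length, and pseudogenes named for a member, of which 3 (of Gapdh, Ldha and Ldhb) had no such match. Runs of animal numbers are groups of nearby numbers formed here. The members and lists were chosen with earlier results of these data known. Genes given in full were the isoforms of the member rule and, in each role group, the member with the largest change in TAC Veh against Sham Veh and in TAC 29P against TAC Veh, and of the further lists up to 4 in each direction; others named were chosen after their values were seen. Alternatives were scaling, filter, added constant (0.1 and 1), threshold, samples and covariates, leaving out each library, and, added after seeing the data, summing copies and TMM without the libraries with atrial transcripts. Values of some genes of the wider pathway list are not reported here, though its counts include them.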

Additional observations from a re-analysis of the deposited data

Results flagged for a closer look

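Of 80 sets of 5 or 6 libraries of a group tested, 5 held a library farther from the rest than Dixon's 95% limit allows, where chance gives about 1 in 20. Pfkfb1 was at 2.95 CPM in S19, against 5.99 to 7.94 in the other Sham Veh libraries. Pdhb was at 367 CPM in S19, against 409 to 422. In TAC 29P, Pdk4 was at 324 CPM in S18, against 649 to 935, and Gfpt2 at 30.7 in S18, against 10.1 to 15.2. Pgd was at 31.0 CPM in S3, against 25.1 to 26.0 in the other TAC 29P libraries. S18 and S19 are among the 3 libraries with atrial transcripts, whose part in these values was not tested.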

How the results depend on the processing

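Counts of members higher and lower depended on the scaling. In TAC Veh against Sham Veh, 7 higher and 2 lower became 2 and 9 with TMM, 2 and 8 with median-of-ratios factors, and 2 and 3 with TMM without the atrial libraries, while an unadjusted p of 0.05 gave 15 higher and a CPM of 1 in every library gave 1 lower. Over both treatments, 19 and 5 became 5 and 16 with TMM or median-of-ratios factors, 7 and 9 with totals without mitochondrial genes, 5 and 15 with TMM without the atrial libraries, and 2 lower with a log2 fold change of 0.3 required. In 29P-treated mice, 11 and 2 became 2 and 8 with TMM (also without the atrial libraries), 2 and 9 with median of ratios, 4 and 5 without mitochondrial genes, 7 and 1 with only the groups compared, and 1 and 0 with animal-number run fitted as a term, and 1 was lower with no filter, with a CPM of 1 in every library and without the atrial libraries, and 4 with array weights. For 29P within TAC, an unadjusted p gave 1 higher and 1 lower, for 29P within Sham 2 lower, and for the difference between them 1. Leaving out each library gave 2 to 15 higher and 1 to 3 lower in vehicle-treated mice, 2 to 13 and 1 to 2 in 29P-treated mice, 14 to 19 and 3 to 5 over both (3 lower without S2), and 0 for 29P. On TMM-scaled CPM 13 members turned from positive to negative in vehicle-treated mice, 13 in 29P-treated mice and 12 over both. Values follow for those called on CPM or under the setting named. Over both treatments, the log2 fold change turned negative with TMM for Aldoa (-0.013), Tpi1 (-0.082), Pgk1 (-0.225), Pkm (-0.253), Pdk1 (-0.081), Gys1 (-0.328), Pygm (-0.338), Gfpt1 (-0.008), and with median of ratios for Aldoa (-0.009), Tpi1 (-0.077), Pgk1 (-0.221), Pkm (-0.248), Pdk1 (-0.077), Gys1 (-0.324), Pygm (-0.334), Gfpt1 (-0.003), and with TMM without the atrial libraries for Pfkl (-0.02), Tpi1 (-0.074), Pgk1 (-0.221), Pkm (-0.238), Pdk1 (-0.126), Pygm (-0.327). In 29P-treated mice, the log2 fold change turned negative with TMM for Tpi1 (-0.032), Pdhb (-0.344), and with median of ratios for Tpi1 (-0.037), Pdhb (-0.349), and with TMM without the atrial libraries for Tpi1 (-0.009). In vehicle-treated mice, the log2 fold change turned negative with TMM without the atrial libraries for Pdk1 (-0.047). The cause of each was not tested, beyond the shift of the median of all genes that TMM brings. The 8 isoform ratios that passed kept their direction under every alternative run and an unadjusted p under 0.05 in all but the fit with animal-number run as a term, which gave no p. Of the 3 others, that fit turned Pdk4/Pdk2 to -0.258, and leaving out a library turned the sign of Pgam1/Pgam2 (-0.046 to 0.133), Pdk4/Pdk2 (-0.242 to 0.499) and Gfpt2/Gfpt1 (-0.251 to 0.277), none of which passed. No paired analysis was possible because the libraries' numbers are not shared between groups.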
